A study of Bos indicus x Bos taurus with 45 samples.

Results

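The kidney and the skeletal muscle of the same 4 control bovine fetuses were compared for their microRNAs (miRNAs), short RNAs that guide repression of messenger RNAs. The comparison used 8 of the 45 small RNA sequencing libraries of a study of large offspring syndrome (LOS), in which calves and lambs conceived by assisted reproduction overgrow before birth. Control fetuses 1 to 4 were conceived by artificial insemination, are labelled healthy, and were collected at about day 105 of gestation, and each gave 1 kidney and 1 skeletal muscle library. They are crosses of Bos indicus and Bos taurus. The tongue libraries with the same control numbers are labelled female. The labels use the same numbers in both tissues, so a number was taken as 1 fetus and each kidney was set against the muscle of its own fetus. LOS fetuses 1 to 4 of the same stage, conceived by assisted reproductive technologies (ART), gave the same pair of tissues and served as a repeat in other animals. The kidney table lists 436 miRNAs and that of muscle lists 439, of which 398 are listed in both and were compared, 38 are listed for kidney only and 41 for muscle only. The labels do not say which part of the kidney or which muscle was taken. Nor do they say whether each fetus had its own dam or processing day. The p-values thus measure how the kidney minus muscle difference varied among these 4 fetuses, and reach no further.

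Epithelial cells of the kidney tubule are known for miR-192, miR-194, miR-215 and miR-204, and epithelia in general for the miR-200 family, which keeps cells epithelial by repressing ZEB1 and ZEB2. Striated muscle is known for miR-1, miR-133, miR-206, miR-208 and miR-499, induced as muscle cells differentiate. Several miRNA genes sit in clusters with a biology of their own. miR-10, miR-196 and miR-615 genes lie inside the HOX gene clusters, which set position along the body axis. The DLK1-DIO3 domain is an imprinted region whose many miRNAs are read from the maternal chromosome, and in sheep a mutation in it causes the muscular hypertrophy called callipyge.

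The control libraries held 6132982 to 8074879 reads of listed miRNAs in kidney and 5321105 to 5878392 in muscle, and the lowest single count was 8. Levels are in CPM (listed reads scaled to a common library size, with TMM factors), and differences are log2 of kidney over muscle, given with a standard error (SE) from the model, so that a positive value means higher in kidney. Between 99.37% and 99.84% of the reads of each control library came from the 398 miRNAs listed in both tables. The tissue labels fitted their markers. Members of the skeletal muscle list made up 0.00212% to 0.00876% of listed reads in kidney and 1.97% to 2.17% in muscle, and miRNAs of kidney and gut epithelium 2.26% to 2.48% in kidney and 0.115% to 0.15% in muscle. The first kidney share is that of miR-133a alone, because the other 8 members of the skeletal muscle list have no value in kidney. The muscle library of fetus 2 stood apart in a few miRNAs of neural and sensory cells. In it miR-182 was at 189 CPM, against 22.7 to 38.6 CPM in the other muscles. The differences of these miRNAs are given with and without fetus 2. miR-215, miR-16a, miR-205 and miR-221 were among other miRNAs highest in that muscle, and these 4 are given with all fetuses only. Tissue and any batch of library making cannot be told apart, because the labels name no batch.

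Most miRNAs differed between the organs. edgeR's quasi-likelihood test with the fetus as a block and Benjamini-Hochberg adjustment called 301 of 398 miRNAs at an adjusted p under 0.05, which is 75.6%, with 126 higher in kidney (31.7%) and 175 lower (44.0%), and 24.4% did not pass. A test against a 2-fold difference in the same model called 116 (29.1%), with 38 higher (9.55%) and 78 lower (19.6%). In 268 miRNAs (67.3%) the 4 kidneys did not overlap the 4 muscles, with all kidneys above in 105 (26.4%) and all below in 163 (41.0%). The median difference over all 398 was -0.06. These shares are the background against which each group of miRNAs below is read. The DLK1-DIO3 list, with 72 of the 398 miRNAs, supplied 68 of the 175 lower calls and 0 of the 126 higher ones. Library scaling sets the zero point: with RLE scaling the median moved by 0.15 and the calls were 154 higher and 158 lower. In the LOS fetuses 305 miRNAs (76.6%) were called, with 135 higher in kidney (33.9%) and 170 lower (42.7%). Of the 301 calls in control fetuses 275 were called there in the same direction and 0 in the opposite one, and all 116 calls beyond 2-fold were among those repeated.

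**Figure D1:**
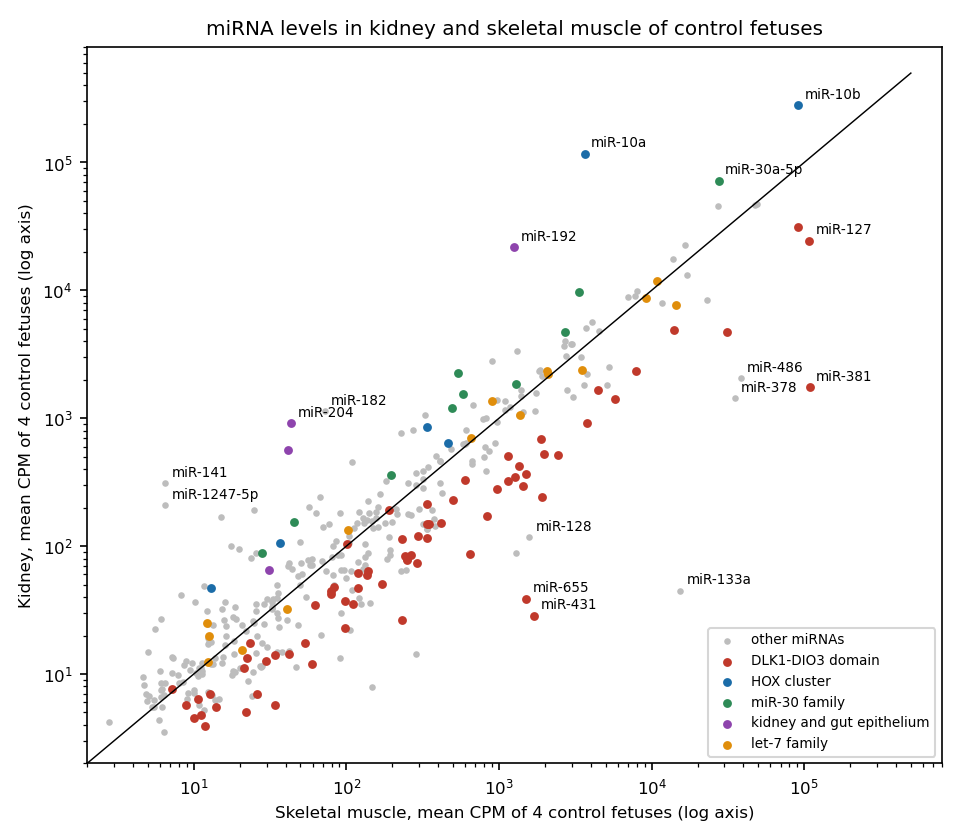
Mean level of each of the 398 miRNAs in the 4 control kidneys (vertical, log axis) against the 4 control skeletal muscles (horizontal, log axis), in TMM scaled CPM, with the line of equal levels. All but 3 DLK1-DIO3 miRNAs lie below the line and the HOX cluster and miR-30 miRNAs above it, and miR-133a and miR-381 lie farthest below, at -8.62 and -5.95 on the log2 scale.

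Epithelial miRNAs led the kidney side. miR-192 stood at 19506, 23216, 23809 and 21185 CPM in kidneys 1 to 4, against 1293, 1348, 1407 and 1002 CPM in the muscles of the same fetuses. The lowest kidney lay far above the highest muscle, and the difference was 4.13 ± 0.10 (adjusted p 3.61e-07 in edgeR). miR-194, made from the same transcripts as miR-192 and miR-215, had 508, 600.0, 591 and 539 CPM in kidney and 37.4, 54.8, 40.2 and 33.2 CPM in muscle. Its difference was 3.78 ± 0.12 (edgeR adjusted p 8.63e-07), with no overlap. miR-204, hosted by TRPM3 and known in kidney tubule and eye, had 953, 809.8, 986 and 911 CPM in kidney, against 35.8, 39.1, 52.3 and 47.4 CPM in muscle. It was 4.40 ± 0.11 higher on the log2 scale (edgeR adjusted p 4.20e-07), again with each kidney above each muscle. miR-215, which shares its seed with miR-192, was far lower, at 47.7, 89.7, 63.6 and 58.0 CPM in kidney and 14.1, 62.3, 21.7 and 26.9 CPM in muscle. Muscle 2 lay above kidney 1 and kidney 4, so the groups overlapped, and the difference was 1.21 ± 0.21 (edgeR adjusted p 0.00201). All 4 listed members of the kidney and gut epithelium list thus rose, 3 of them by more than 2-fold, with a median of 3.95. Fewer cells of a type and less RNA per cell cannot be told apart in such whole-tissue libraries, here or in the groups that follow.

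The general epithelial miR-200 family was mostly listed for kidney alone. miR-141 was its only member listed in both tables, at 279, 373, 306 and 289 CPM in kidney, against 2.11, 7.37, 4.23 and 12.3 CPM in muscle. That was 5.69 ± 0.37 on the log2 scale (edgeR adjusted p 1.78e-05), the highest difference among the miRNAs of 100 CPM or more, and every kidney was above every muscle by over an order of magnitude. The other 6 listed members, miR-200a, miR-200a-5p, miR-200b, miR-200b-5p, miR-200c and miR-429, were in the kidney table only. miR-200a had 548, 584, 563 and 538 CPM (unscaled) in kidneys 1 to 4, and miR-429 333, 376, 363 and 313 CPM. The 4 kidneys differed little from each other in these 2 miRNAs. The muscle table goes down to a mean of 2.45 CPM, and a miRNA that it does not list has no value there, so no fold is given. miR-200b and miR-200c had 144 ± 6.19 and 67.0 ± 10.2 CPM (SD, n = 4). miR-31, an epithelial miRNA of no list here, was also listed for kidney only, at 131, 143, 86.4 and 156 CPM, and miR-2483-5p at 15.3 ± 3.27 CPM. miR-205, of squamous epithelium, varied more among kidneys, at 144, 286, 84.6 and 249 CPM, against 11.8, 48.0, 29.2 and 10.5 CPM in muscle. Its groups still did not overlap, and the difference was 3.01 ± 0.48 (edgeR adjusted p 0.00139).

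Other miRNAs with the largest rises had varied known roles. miR-1247-5p had 175, 220.4, 252 and 187 CPM in kidney, against 5.27, 6.23, 10.6 and 3.97 CPM in muscle, a difference of 5.04 ± 0.17 (edgeR adjusted p 1.25e-06). In human its gene lies beside DIO3, at the edge of the region that holds the DLK1-DIO3 miRNAs, and it was not a member of that list. miR-182 and miR-183, from 1 cluster known in sensory cells of eye and ear, are members of the neural and sensory list. miR-182 had 1023, 981, 1345 and 1198 CPM in kidney, against 22.7, 189, 37.9 and 38.6 CPM in muscle. miR-183 had 158, 152, 201 and 170.3 CPM in kidney, against 4.92, 43.8, 4.61 and 6.85 CPM in muscle. Muscle 2 was several times above the other muscles in both, yet below every kidney. Their differences were 4.50 ± 0.58 and 4.06 ± 0.65 with all fetuses, and 5.19 and 5.00 without fetus 2. miR-146b, a brake on inflammatory signalling in white blood cells, had 128, 78.9, 94.5 and 99.0 CPM in kidney and 7.9, 19.8, 11 and 31.9 CPM in muscle, a difference of 2.62 ± 0.40 (edgeR adjusted p 0.00107) with no overlap. All 4 were also called higher in the kidneys of LOS fetuses.

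**Figure D2:**
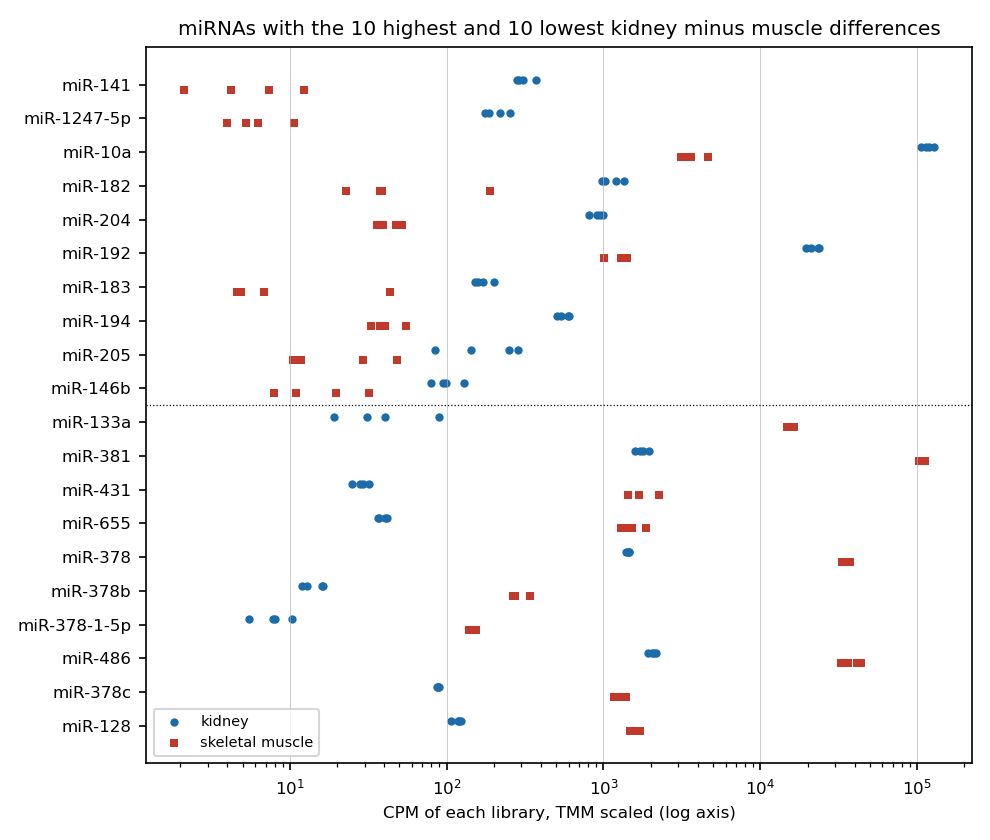
Level in each library, in TMM scaled CPM on a log axis, of the 10 miRNAs with the highest and the 10 with the lowest kidney minus muscle difference among called miRNAs of 100 CPM or more in the higher tissue; circles are kidneys and squares are skeletal muscles. The tissues do not overlap in any of the 20, and muscle 2 stands apart in miR-182 and miR-183, at 189 and 43.8 CPM.

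miRNAs of the HOX clusters were the most abundant in kidney. miR-10b alone made up 28.49%, 28.89%, 28.24% and 28.14% of listed reads in kidneys 1 to 4, against 10.07%, 9.00%, 8.47% and 8.46% in muscles 1 to 4. In scaled levels it was 1.62 ± 0.09 higher (edgeR adjusted p 9.84e-06), with no overlap. miR-10a, which differs from miR-10b in a single base of the mature sequence and lies in the HOXB rather than the HOXD cluster, had 105897, 114249, 128928 and 119211 CPM in kidney, against 3142, 4609.9, 3267 and 3598 CPM in muscle, a difference of 5.01 ± 0.13 (edgeR adjusted p 4.20e-07). Each kidney lay far above each muscle in miR-10a. How reads that match both were counted is not given in the sources used here. miR-10a-3p, the other arm of the miR-10a precursor, was listed for kidney only, at 82.1, 79.9, 84.9 and 86.1 CPM.

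All 6 HOX cluster members listed in both tables rose, 5 of them by more than 2-fold, with a median of 1.59, and in all 6 every kidney lay above every muscle. miR-196b stood at 861 ± 45.3 CPM in kidney and 336 ± 44.4 CPM in muscle (SD, n = 4 each), a difference of 1.36 ± 0.10. miR-196a, a close relative from other HOX clusters, differed by 0.44 ± 0.11, the smallest rise of the list. miR-615-3p, from a HOXC gene, differed by 1.55 ± 0.10, and miR-10b-3p by 1.85 ± 0.11. Together the list took 40.2% to 41% of listed reads in kidney and 8.86% to 10.5% in muscle. The same 6 were called higher in the kidneys of LOS fetuses, with a median of 1.6.

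The miR-30 family rose as a whole. Its members are abundant in kidney, and in the frog Xenopus they are needed for the embryonic kidney. All 10 members listed in both tables rose, 7 of them by more than 2-fold, and in all 10 every kidney lay above every muscle. The median was 1.40, and the differences ran from 0.51 for miR-30c to 2.07 for miR-30f. miR-30a-5p, the most abundant, had 61609, 75982, 78298 and 73095 CPM in kidney, against 23678, 29298, 30509 and 27124 CPM in muscle. That was 1.39 ± 0.05 higher (edgeR adjusted p 2.12e-06), with no overlap. miR-30f had 2091, 2320.3, 2375 and 2316 CPM in kidney and 483, 573, 579 and 532 CPM in muscle, a difference of 2.07 ± 0.06 (edgeR adjusted p 5.43e-07). The family took 8.97% to 9.9% of listed reads in kidney and 3.11% to 3.84% in muscle, and all 10 members were called higher in LOS kidneys too. Members that differ by few bases, such as miR-30a-5p and miR-30e-5p, could share reads.

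Shares of a library are not independent of each other: where 1 group takes more, the rest have less. Outside the DLK1-DIO3 reads, which fill much of the muscle libraries, HOX cluster miRNAs made up 43.7% to 44.7% of the remaining reads in kidney and 14.5% to 17.9% in muscle. Outside both of those lists, the miR-30 family made up 17.6% to 19.5% in kidney and 6.5% to 7.46% in muscle. In both groups the kidney shares lay above the muscle shares there too. For the HOX cluster the organs were closer in proportion than over all listed reads (40.2% to 41% and 8.86% to 10.5%). Outside the HOX reads, DLK1-DIO3 miRNAs made up 13.3% to 14.4% in kidney and 42.4% to 46.5% in muscle. The part of library composition in these differences was not tested.

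**Figure D3:**
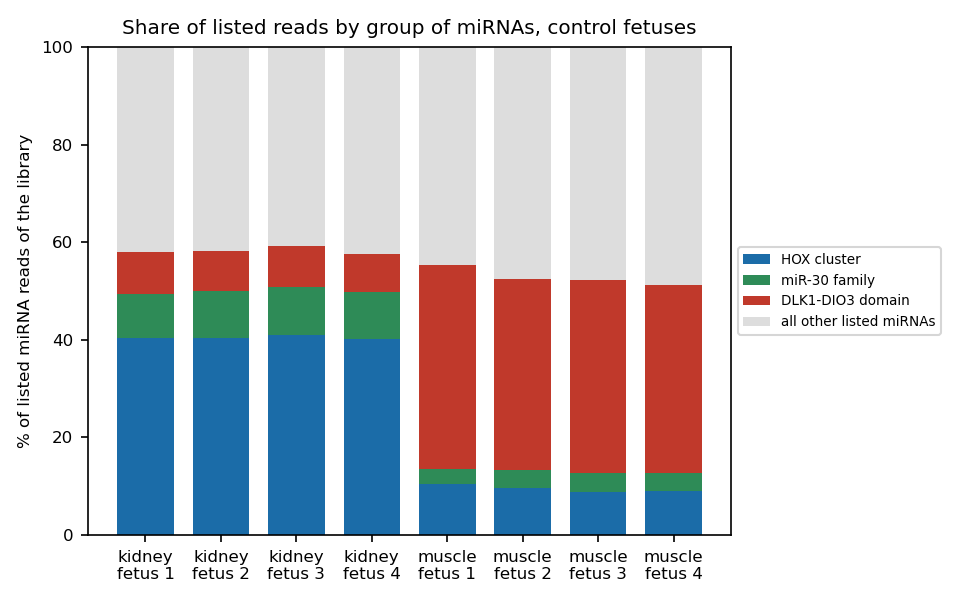
Share of listed miRNA reads (vertical, %) of each control library, by fetus, taken by the HOX cluster, miR-30 and DLK1-DIO3 lists and by all other listed miRNAs; kidneys stand left of skeletal muscles. HOX cluster miRNAs take 40.2% to 41% in kidney and 8.86% to 10.5% in muscle, and DLK1-DIO3 miRNAs 7.97% to 8.59% in kidney and 38.6% to 41.7% in muscle.

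Striated muscle miRNAs marked the other side. miR-133a, which restrains smooth muscle genes in skeletal and heart muscle, had 19.2, 88.8, 30.8 and 40.5 CPM in kidneys 1 to 4, against 16367, 14816, 15451 and 14994 CPM in the muscles. It fell by 8.62 on the log2 scale (SE 0.46; edgeR adjusted p 7.31e-06), the largest difference of the 398. The kidneys varied among themselves over a range of several-fold, with kidney 2 the highest, while the muscles were close to each other. The other 8 listed members of the muscle list were in the muscle table only. miR-133b had 3185, 3180.0, 2684 and 3386 CPM (unscaled) in muscles 1 to 4, miR-206, found in skeletal muscle but not heart, 686, 768, 974 and 769 CPM, and miR-1 284, 259, 252 and 221 CPM. miR-208b and miR-499, which lie in introns of the slow myosin genes MYH7 and MYH7B, had 896 ± 182 and 455 ± 42.4 CPM (SD, n = 4). miR-133a-5p, the other arm of the miR-133a precursor, had 54.9 ± 1.39 CPM, and miR-6522 31.1 ± 4.09 CPM. The first 5 stood far above the lowest listed levels in each muscle, and the kidney table goes down to a mean of 3.55 CPM.

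The miR-378 family, miR-486 and miR-128 were also lower in kidney. miR-378, hosted by the gene of the mitochondrial regulator PGC-1beta, had 1429, 1452, 1447 and 1384 CPM in kidney, against 32953, 34024, 37078 and 36018 CPM in muscle. It fell by 4.61 (SE 0.07; edgeR adjusted p 8.18e-08), and both groups were tight. Its relatives miR-378b, miR-378c and miR-378-1-5p fell by 20.0-fold, 14.7-fold and 18.7-fold, and miR-378d was listed for muscle only, at 50.4 ± 3.34 CPM. Apart from miR-378-1-5p, which is a 5p arm, these entries are near-identical and could share reads. miR-486, which lies in the ANK1 gene and is known in muscle and red cell precursors, had 2044, 2175, 1928 and 2098 CPM in kidney, against 41228, 36148, 43739.5 and 32691 CPM in muscle. It fell by 4.21 (SE 0.11; edgeR adjusted p 5.11e-07). The red cell miRNA miR-451 stood at 281, 198, 135 and 119.8 CPM in kidney and 72.0, 145, 147 and 123 CPM in muscle, with overlap, and a difference of 0.54 ± 0.35 that did not pass (edgeR adjusted p 0.203). miR-144, from the same cluster as miR-451, did not pass either, at 0.33 ± 0.16, and passed with RLE scaling (0.478, edgeR adjusted p 0.0293), without the 3 most abundant miRNAs of each tissue (0.0351) and without fetus 4 (0.0182). miR-128, known in neurons and muscle, had 120.2, 107, 124 and 117 CPM in kidney and 1632, 1489.7, 1718 and 1477 CPM in muscle, and fell by 3.75 (SE 0.07; edgeR adjusted p 1.38e-07).

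The DLK1-DIO3 miRNAs formed the largest group that differed. Of its 72 members listed in both tables, 68 fell, 50 of them by more than 2-fold, 0 rose and 4 did not pass. In 67 members every kidney lay below every muscle. The median difference was -1.53, beside -0.06 over all 398 miRNAs, with the 2 arms of a hairpin counted separately. The list took 8.59%, 8.16%, 8.26% and 7.97% of listed reads in kidneys 1 to 4, against 41.7%, 39.0%, 39.6% and 38.6% in the muscles. A further 10 members were listed for muscle only and 1, miR-544a-5p, for kidney only. The most abundant of the 10 were miR-381-5p, the other arm of the miR-381 precursor, at 49.4 ± 3.27 CPM, and miR-377-5p at 31.2 ± 4.62 CPM (unscaled, SD, n = 4). In LOS fetuses 65 of the 72 were called lower in kidney and 1 higher, with a median of -1.37.

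The fall was far from even across the domain. In 3 members it was larger than 5 on the log2 scale. miR-381 had 1706, 1956, 1786 and 1596 CPM in kidney, against 110453, 107806, 112849 and 102315 CPM in muscle, where it and miR-127 were the most abundant of all miRNAs. It fell by 5.95 (SE 0.08; edgeR adjusted p 8.18e-08), and the highest kidney was far below the lowest muscle. miR-431 had 29.5, 31.9, 28.0 and 24.8 CPM in kidney and 2258, 1684, 1431 and 1434 CPM in muscle, and fell by 5.88 (SE 0.13; edgeR adjusted p 2.67e-07). In mouse it is known from muscle satellite cells, where it represses PAX7. miR-655 had 41.7, 36.7, 37.1 and 40.2 CPM in kidney and 1349, 1529, 1298 and 1863 CPM in muscle, and fell by 5.26 (SE 0.12; edgeR adjusted p 2.67e-07). The next largest falls were 8.77-fold for miR-299 and 7.84-fold for miR-299-3p, the 2 arms of 1 precursor, and 7.5-fold for miR-543. A total of 15 members lay between -5 and -2, 38 between -2 and -1, 13 between -1 and 0, and 3 above 0.

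Abundant members of the domain carried most of its reads in both organs. miR-127, which lies antisense to the imprinted gene RTL1 and represses it, had 25092, 23435, 25348 and 23978 CPM in kidney and 129770.0, 98097, 106687 and 98496 CPM in muscle, and fell by 2.14 (SE 0.08; edgeR adjusted p 1.64e-06). miR-411a had 31219.6 ± 2541 CPM in kidney and 90448 ± 8688 CPM in muscle (SD, n = 4 each), and fell by 1.53. miR-410 had 4766 ± 235 CPM in kidney and 31330.4 ± 1296 CPM in muscle, and fell by 2.72. These 3 and miR-381 took 6.14% to 6.49% of listed reads in kidney and 32.1% to 35.2% in muscle. Without all 4, the rest of the list took 1.83% to 2.1% in kidney and 6.28% to 6.48% in muscle, so the gap did not rest on them alone.

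The 4 members that did not pass were miR-134, miR-379, miR-323b-3p and miR-668-3p. miR-379, the first miRNA of a large cluster in the domain, had 177, 193, 224 and 172 CPM in kidney and 181, 176, 219 and 182 CPM in muscle, overlapping, with a difference of 0.01 ± 0.07 (edgeR adjusted p 0.896). Its other arm, miR-379-3p, fell to 149 ± 5.6 CPM in kidney, against 350.1 ± 22.3 CPM in muscle. miR-323b-3p stood at 103 ± 2.94 CPM in kidney and 101 ± 10.9 CPM in muscle, at 0.04 ± 0.09. miR-134, a regulator of dendrites in neurons, was at -0.42 ± 0.17 (edgeR adjusted p 0.0596; 0.0306 and called lower with no replicate block, 0.0114 without fetus 1 and 0.0489 with the filter at 10 CPM) and miR-668-3p at 0.09 ± 0.21. The 1 member called higher in LOS kidneys was miR-379, at 0.47 ± 0.10 (edgeR adjusted p 0.00277).

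Of 5 miRNAs from other imprinted loci 4 fell. miR-335 and miR-335-3p, from an intron of the paternally expressed gene MEST, differed by -1.09 ± 0.08 and -0.55 ± 0.08. miR-296-3p and miR-296-5p, from the GNAS region, differed by -1.10 ± 0.07 and -0.87 ± 0.11. In all 4 every kidney lay below every muscle, and none passed the test against 2-fold. miR-483, from an intron of IGF2, a growth factor gene with raised expression in overgrowth syndromes, had 169, 137, 157 and 163 CPM in kidney and 143, 127, 169 and 147 CPM in muscle. Its difference of 0.10 ± 0.08 did not pass (edgeR adjusted p 0.329), and was 0.248 with RLE scaling (0.0248), 0.247 with DESeq2 (0.0137) and 0.222 without the 3 most abundant miRNAs of each tissue (0.042). The median of these 5 was -0.87.

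The most abundant miRNAs of the organs overlapped in part. The 10 most abundant took 69.83% to 73.06% of listed reads in kidney and 61.12% to 63.21% in muscle, and 6 were common to both: miR-10b, miR-30a-5p, miR-26a, miR-181a, miR-411a and miR-127. The other 4 were miR-10a, miR-143, miR-27b and miR-192 in kidney, and miR-381, miR-486, miR-378 and miR-410 in muscle. miR-27b differed by 0.44 ± 0.08 (edgeR adjusted p 0.00302), with each kidney above each muscle. Some abundant miRNAs had differences near 0. miR-26a, an abundant miRNA of many tissues, had 39777, 49903, 46522 and 54257 CPM in kidney and 42106, 54617, 40828 and 57844 CPM in muscle, with a difference of -0.03 ± 0.07. miR-181a had 39714, 45032, 51089.5 and 48695 CPM in kidney and 45421, 47213, 52817 and 44087 CPM in muscle, at -0.04 ± 0.07. miR-181c, let-7a-5p and miR-301a were the others nearest 0, at 0.05 ± 0.10, -0.06 ± 0.08, and 0.07 ± 0.06. None of these 5 passed (edgeR adjusted p 0.306 to 0.735), all 5 overlapped, and the sign of 4 of them changed with the scaling or with 1 fetus left out. miR-301a passed with RLE scaling (0.224, edgeR adjusted p 0.028), with DESeq2 (0.0137), without the 3 most abundant miRNAs (0.0398) and without fetus 1 (0.0183), and miR-181c passed without fetus 1 (0.292, edgeR adjusted p 0.0088).

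Markers of the connective tissue of either organ moved in both directions. All 5 fibroblast members (miR-199a, miR-199b and miR-214 arms) fell, with a median of -0.52 (-0.311 without fetus 1) and every kidney below every muscle. miR-199a-5p was at -1.06 ± 0.07, the largest of them, and the list took 1.07% to 1.25% of listed reads in kidney and 1.58% to 1.76% in muscle. miR-214 and miR-214-5p lost their calls without fetus 1 (highest edgeR adjusted p 0.0642), and miR-199b lost its call with RLE scaling (0.0577). Of the 4 smooth muscle members 2 rose, miR-143 (0.73 ± 0.12) and miR-143-5p (0.48 ± 0.13), and the list took 3.9% to 5.8% in kidney and 2.4% to 2.93% in muscle. miR-143 had 36558, 58244, 39668 and 49409.9 CPM in kidney and 24459, 28076, 30688 and 25937 CPM in muscle, with no overlap. miR-145 and miR-145-3p did not pass (edgeR adjusted p 0.0712 and 0.0596), and passed with RLE scaling (0.0111 and 0.0148), with DESeq2 (0.0032 and 0.00913), without the 3 most abundant miRNAs (0.0182 and 0.0215), with no scaling factor (0.0392 and 0.028) and without fetus 1 (0.0378 and 0.0157). miR-145 also passed without fetus 3 (0.027), and miR-145-3p with no replicate block (0.0253). miR-143-5p lost its call without fetus 2 (0.0625) or fetus 4 (0.0587). In LOS fetuses miR-143 was the only smooth muscle member called. There miR-143-5p was at 0.02 (edgeR adjusted p 0.938). miR-145 turned in sign, at -0.31 in LOS (edgeR adjusted p 0.12) against 0.29 in control fetuses. Of the 5 fibroblast members 4 were called lower in LOS fetuses, and miR-199b was not (-0.07, edgeR adjusted p 0.654).

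Vessel and blood markers were present in both organs. Of the endothelial members, miR-126-5p rose (0.30 ± 0.05), miR-126-3p rose (0.25 ± 0.08) with overlap, and miR-139 fell (-0.81 ± 0.09). miR-126-3p lost its call without the fetus block (edgeR adjusted p 0.0745) or without fetus 3 (0.111). The list took 1.14% to 1.2% of listed reads in kidney and 0.85% to 0.987% in muscle. In LOS fetuses miR-126-5p was called higher and miR-139 lower, and miR-126-3p was not called (-0.02, edgeR adjusted p 0.859). Of 6 white blood cell members 3 rose, miR-146b, miR-150 (1.24 ± 0.19) and miR-146a (0.53 ± 0.12). miR-142-3p and miR-142-5p, the defining miRNAs of blood cells, did not pass, at 0.08 ± 0.16 and -0.02 ± 0.09, and neither did miR-155, at 0.24 ± 0.10. miR-155 passed with RLE scaling (0.392, edgeR adjusted p 0.00641), with DESeq2 (0.00136), without the 3 most abundant miRNAs (0.00838) and without fetus 1 (0.0442) or fetus 2 (0.0171). The list took 0.0376% to 0.0471% in kidney and 0.0229% to 0.032% in muscle. Both cartilage members, the arms of miR-140, rose (0.31 ± 0.07 and 0.54 ± 0.13). miR-122 of hepatocytes lay at 10.4 ± 8.95 CPM in kidney and 18.6 ± 10.4 CPM in muscle, and did not pass (edgeR adjusted p 0.0531; a difference of -0.344 and 0.269 without fetus 1, and of -1.46 and 0.00769 without fetus 2; 0.0412 with no scaling factor and 0.0452 with the filter at 10 CPM). miR-210, induced by low oxygen, rose by 0.22 ± 0.08 with overlap.

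The list of neural and sensory cells split in direction. Of its 6 members present in both organs, 4 rose and 2 fell. Beside miR-182 and miR-183, miR-218 rose to 242, 247, 247 and 239.7 CPM in kidney, against 36.7, 79.7, 77.1 and 75.9 CPM in muscle, a difference of 1.91 ± 0.20. miR-9, a miRNA of neural progenitors, had 209.7, 161, 179 and 174 CPM in kidney and 37.6, 142, 30 and 44.9 CPM in muscle, at 1.80 ± 0.42, or 2.33 without fetus 2. miR-338 fell to 11.5, 15.3, 12.6 and 13.7 CPM in kidney, against 39.9, 245, 18.8 and 61.6 CPM in muscle. miR-138 fell to 6.18, 7.8, 7.52 and 5.56 CPM in kidney, against 21.4, 49.1, 15.6 and 9.91 CPM in muscle. In both, every kidney was below every muscle. Their differences were -2.17 ± 0.53 and -1.65 ± 0.31, and -1.55 and -1.26 without fetus 2, still called, and miR-338 was at -2.78 without the fetus block. miR-124 and miR-137, defining miRNAs of neurons, are not listed in either table. miR-338 was not called in LOS fetuses (-0.34 ± 0.16, edgeR adjusted p 0.0925). The part of muscle 2 in these values was not tested beyond leaving its fetus out. None of the cell types above was tested for its part in the differences of other miRNAs.

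**Figure D4:**
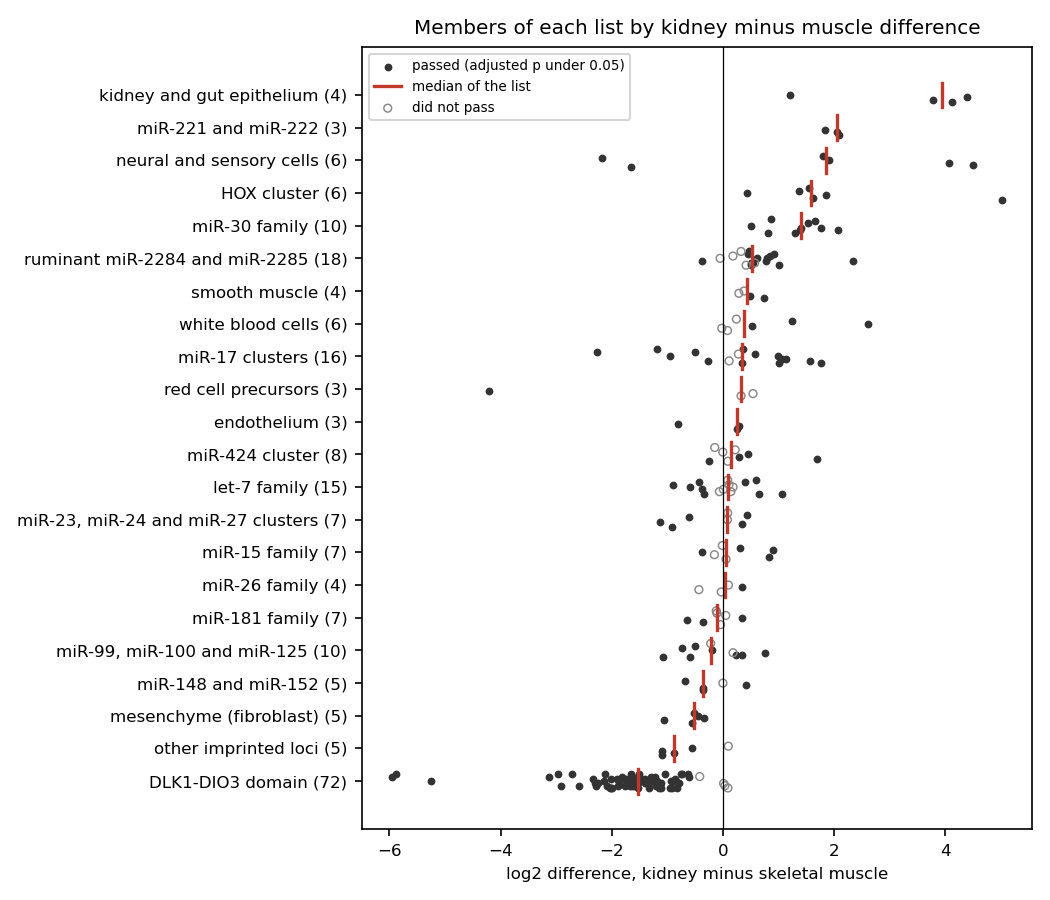
Difference of each member of 22 lists (horizontal, log2 of kidney over skeletal muscle), with filled points for miRNAs that passed at an adjusted p under 0.05, open points for those that did not, and a bar at the median of each list. The number of members listed in both tables stands in brackets; 68 of 72 DLK1-DIO3 members passed and lie below 0, and all 10 miR-30 members passed and lie above it.

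Widely expressed families split among their members, as did the 398 miRNAs as a whole, with 31.7% higher in kidney and 44.0% lower. Counts of the families that follow are read beside these shares. Of 15 let-7 members, a family that rises as cells differentiate, 4 rose and 5 fell, with a median of 0.09 (0.237 with RLE scaling or DESeq2 and 0.211 without the 3 most abundant miRNAs of each tissue). let-7i fell to 7712 ± 664 CPM in kidney, against 14355 ± 407 CPM in muscle (SD, n = 4 each; -0.90 ± 0.07), let-7c was at -0.59 ± 0.13, and let-7e rose by 0.60 ± 0.08. let-7b, let-7a-3p and let-7i-3p also fell, and let-7d-3p, let-7e-3p and miR-98-3p rose, the last by 1.06 ± 0.14. Of the 16 members of the miR-17 clusters, which promote proliferation, 9 rose and 5 fell, with a median of 0.35. miR-92b and miR-93 rose most, to 764 ± 78.5 and 814 ± 27.7 CPM in kidney, against 227 ± 42.8 and 274 ± 30.4 CPM in muscle, at 1.76 ± 0.10 and 1.58 ± 0.09. miR-363, of the X-linked cluster of this group, fell by 2.27, with 20.0, 21.2, 24.9 and 22.2 CPM in kidney and 99.8, 116, 109 and 99.7 CPM in muscle. miR-18b and miR-20b of that cluster fell as well (-1.18 ± 0.13 and -0.95 ± 0.16), as did miR-18a-3p and miR-106b-3p. From the founding cluster, miR-17-5p and miR-20a rose by 0.99 ± 0.10 and 1.13 ± 0.09.

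Of 10 members of the miR-99, miR-100 and miR-125 group 3 rose and 5 fell, with a median of -0.21, and miR-100 fell to 2508 ± 313 CPM in kidney, against 5262 ± 435 CPM in muscle (-1.07 ± 0.07). All 3 members of miR-221 and miR-222, which repress the cell cycle inhibitor p27, rose by more than 2-fold. miR-221 had 486, 478, 431 and 410.0 CPM in kidney, against 78.0, 137, 102 and 116 CPM in muscle, at 2.08 ± 0.15 (edgeR adjusted p 3.19e-05) and with no overlap. In the X-linked miR-424 cluster 3 of 8 rose and 1, miR-424-3p, fell, and miR-424-5p rose to 1064 ± 147 CPM in kidney, against 327 ± 20.3 CPM in muscle (1.69 ± 0.12). In the miR-15 family, which restrains the cell cycle, 3 of 7 rose, with miR-16b at 0.90 ± 0.07 and miR-15b at 0.83 ± 0.10, and miR-16a fell (-0.37 ± 0.12).

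In the miR-23, miR-24 and miR-27 clusters 2 of 7 rose, miR-27b and miR-23b-3p, which lie together, and 3 fell. The 3 were miR-23a (-0.92 ± 0.07), miR-27a-3p (-0.61 ± 0.08) and miR-24-2-5p (-1.14 ± 0.11), from the other cluster of the pair. In the miR-148 and miR-152 group 1 of 5 rose, miR-148b (0.41 ± 0.06), and 3 fell, led by miR-152 (-0.68 ± 0.09). Of the 3, miR-148a lost its call with RLE scaling (edgeR adjusted p 0.065), DESeq2 (0.0515) and without fetus 2 (0.0644) or fetus 3 (0.0686). In the miR-181 family 1 of 7 rose, miR-181b (0.35 ± 0.08), and 2 fell, and in the miR-26 family miR-26b alone of 4 rose (0.35 ± 0.07). miR-34c, of a family induced by p53, rose (1.84 ± 0.19), and miR-449a did not pass. miR-29a and miR-29c, which repress collagens, were listed for kidney only, at 31.5 ± 3.81 and 20.8 ± 4.48 CPM (SD, n = 4). Of 18 members of the ruminant families miR-2284 and miR-2285 12 rose and 1 fell, with a median of 0.52, beside 31.7% higher and 44.0% lower over all miRNAs. The share lower over all miRNAs includes the 68 DLK1-DIO3 calls. miR-2285k had 41.1, 39.9, 44.5 and 40.4 CPM in kidney and 7.55, 8.88, 9.42 and 7.03 CPM in muscle, at 2.34 ± 0.11 (edgeR adjusted p 3.78e-06). The 1 that fell, miR-2285bf (-0.37 ± 0.12), lost its call with RLE scaling (edgeR adjusted p 0.137), with DESeq2 (0.273) and without fetus 1 (0.301), fetus 2 (0.0536) or fetus 3 (0.0913). Most others of this group were under 50 CPM in both organs.

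The arms of a precursor need not be kept in the same ratio in each tissue. A miRNA precursor is a hairpin that yields a 5p and a 3p arm, and usually one arm is kept and the other degraded. For the 75 precursors with both arms listed in both tables, the log2 ratio of 5p to 3p reads was compared, which needs no scaling between libraries. limma with the fetus as a block called 37 of them (49.3%), with 20 higher in kidney (26.7%) and 17 lower (22.7%). The differences were mostly small, with a median size of 0.31 on the log2 scale and 5 calls of 1 or more. In 71 of 75 the same arm was the more abundant one in both organs, and 29 of the 37 calls were repeated in the same direction in LOS fetuses.

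mir-424 differed most. Its log2 ratio was 3.24, 2.53, 2.64 and 2.85 in kidneys 1 to 4, against 0.90, 0.89, 0.84 and 0.84 in the muscles, a difference of 1.94 ± 0.13 (limma adjusted p 8.02e-08). The kidneys spread more than the muscles and did not overlap them. Its 5p arm, miR-424-5p, was 1.69 higher in kidney, while its 3p arm was at -0.25. mir-106b, which lies in the MCM7 gene with mir-93 and mir-25, had ratios of -0.27, -0.32, -0.37 and -0.30 in kidney and -1.57, -1.65, -1.67 and -1.52 in muscle, at 1.29 ± 0.10 (limma adjusted p 5.08e-07).

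The 3 named precursors of the DLK1-DIO3 domain, which met the minimum of 50 reads and were among the 5 highest, were mir-379, mir-1185 and mir-485. The ratio of mir-379 was 0.20, 0.35, 0.58 and 0.29 in kidney and -1.01, -1.04, -0.72 and -0.80 in muscle, so that the 5p arm was the more abundant in each kidney and the 3p arm in each muscle. The difference was 1.24 ± 0.11 (limma adjusted p 8.37e-07). mir-1185 changed its more abundant arm in the same way, at 1.26 ± 0.12, and mir-485 was at 0.90 ± 0.11. The opposite direction was led by mir-502b (-0.85), mir-500 (-0.84), mir-874 (-0.82), mir-362 (-0.79) and mir-493 (-0.56). Of these 10 precursors only mir-502b had kidneys that overlapped the muscles.

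**Figure D5:**
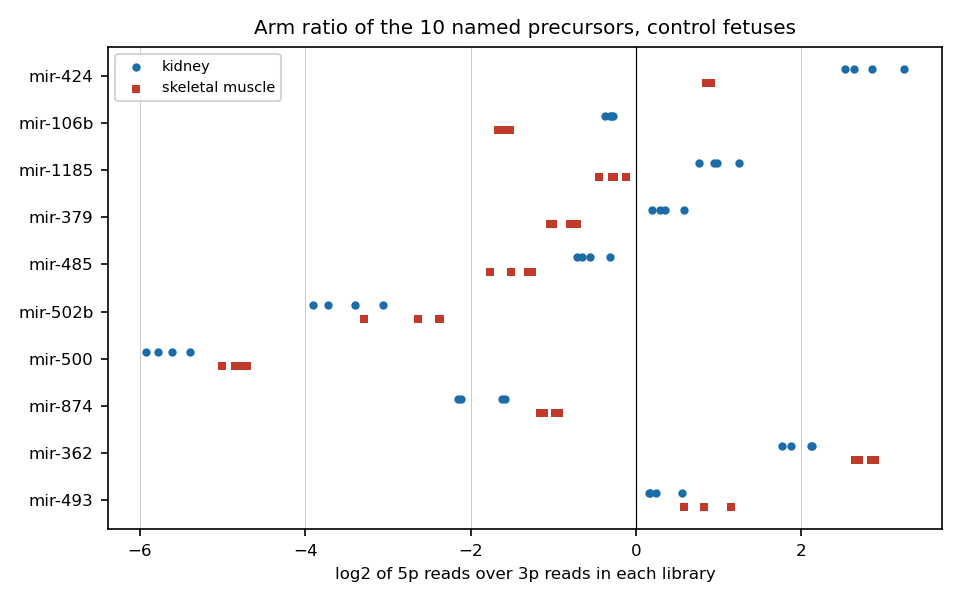
Log2 ratio of 5p to 3p reads (horizontal) in each library for the 5 precursors with the largest called difference in each direction and 50 or more reads of each arm in every library; circles are kidneys and squares are skeletal muscles. mir-424 is farthest apart, at 1.94, and mir-379 and mir-1185 lie above 0 in kidney and below 0 in muscle.

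Whether the tissue difference itself differed between LOS and control fetuses was tested as an interaction over the 16 libraries of both groups. edgeR's quasi-likelihood test called 0 of 398 miRNAs, which is 0%, with a lowest adjusted p of 0.124. At an unadjusted p under 0.05 there were 42 (10.6%), a larger share than the 0.05 expected if none differed. limma-voom called 0 and DESeq2 called 1, miR-26a, with a log2 difference in LOS minus control fetuses of -0.76. miR-26a was -0.70 ± 0.12 in LOS fetuses (edgeR adjusted p 0.000707), against -0.03 ± 0.07 in controls. The leading miRNAs kept their direction in LOS fetuses. miR-141 was at 5.93 ± 0.24 in LOS against 5.69 ± 0.37 in control fetuses, miR-10a at 5.15 ± 0.14 against 5.01 ± 0.13, miR-133a at -9.21 ± 0.22 against -8.62 ± 0.46, and miR-381 at -5.60 ± 0.12 against -5.95 ± 0.08. With 4 fetuses in each group, a p that misses the threshold does not show that the tissue differences are alike.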

How the data were processed

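RNA was extracted with TRIzol and made into libraries with a TruSeq small RNA kit, per the labels' protocols. The authors deposited 1 table of raw counts per miRNA and tissue; Bowtie and UMD3.1 are named, without a role, in the submitters' processing notes, and how reads that match several miRNAs were counted is not given in the sources used here. Counts of control fetuses 1 to 4 were taken from the deposited kidney and muscle tables. Totals covered all miRNAs of each table, TMM factors the 398 shared ones, and all 398 passed edgeR's filter on low counts. edgeR 4.0.16 (R 4.3.3) fitted quasi-likelihood models with tissue and fetus as terms, its glmTreat tested against 2-fold, and p-values were adjusted by Benjamini-Hochberg over all miRNAs. limma 3.58.1 tested arm ratios after adding 0.5 to each count; DESeq2 1.42.0 and limma-voom were alternatives. The pairing comes from the fetus numbers in the labels: deviations of same-numbered kidney and muscle libraries correlated at 0.018, 0.25, 0.43 and 0.048. Libraries of different numbers correlated at -0.28 to 0.27, the highest for kidney 1 with muscle 4. Of the same-numbered values only that of fetus 3 lay outside this range. Named miRNAs are the 10 called miRNAs of 100 CPM or more with the largest difference in each direction, the 5 nearest 0 of at least 1000 CPM in both tissues, the 10 most abundant of each tissue and the leading miRNAs of each one-table group; list members named beside them were chosen after their values were seen. Members and lists were chosen with earlier results of these data known, and the DLK1-DIO3, HOX and cell type lists come from general knowledge of miRNA genes. Data were simulated for the kidney and muscle comparison over 398 miRNAs, with 50 miRNAs changed at each fold and 198 unchanged. At 1.5-fold 86% were recovered, at 2-fold 98% and at 4-fold 100%, and 2 of the 198 unchanged miRNAs were called. How the scaling performs with as many differences as the 301 called in the control fetuses was not tested. Grouping by shared seed was not run, and no sequences are printed. Tables of other tissues were not used.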

Additional observations from a re-analysis of the deposited data

Results flagged for a closer look

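In 13 of 258 groups of 4 libraries, a single library lay farther from the other 3 than Dixon's test allows at the 95% level. Chance gives about 5% of such groups, so the number flagged is about what chance alone would give. Which of the 13, if any, go beyond chance cannot be told from this count. The muscle of fetus 2 stood apart in 3 miRNAs of neural and sensory cells: miR-182 at 189 CPM against 22.7 to 38.6 in the other muscles, miR-183 at 43.8 against 4.61 to 6.85, and miR-9 at 142 against 30 to 44.9 CPM. miR-218, also of that list, was low in the muscle of fetus 1, at 36.7 CPM against 75.9 to 79.7. The muscle of fetus 3 was high in miR-378b, at 342 CPM against 264 to 272, in miR-30e-3p, at 215 against 189 to 193, in miR-379, at 219 against 176 to 182, and in miR-148b, at 668 against 589 to 592 CPM. The muscle of fetus 4 was low in miR-379-3p, at 317 CPM against 359 to 364, and in miR-99b-3p, at 12.1 against 16.4 to 17.2. It was high in miR-375, at 20.5 CPM against 7.69 to 9.44. Among kidneys, that of fetus 1 was high in miR-134, at 22.3 CPM against 15.4 to 16.3, and that of fetus 2 low in miR-532, at 1620 against 1880 to 1890 CPM.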

How the results depend on the processing

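No alternative turned the direction of a called miRNA among the 129 followed; of 1667 values, 1584 kept their direction and side of the threshold. Leaving out 1 fetus gave 269 to 300 calls, and no replicate block gave 296. The higher and lower calls were 154 and 158 with RLE scaling, 146 and 159 without the 3 most abundant miRNAs of each tissue, 146 and 155 with DESeq2, and 144 and 156 without fetus 1. Calls of arm ratios numbered 28 to 34 with 1 fetus left out and 35 with no replicate block. The interaction gave 1 call with DESeq2. Of 286 list medians compared, 42 moved by more than their SD over fetuses. The DLK1-DIO3 median was -1.38 with RLE scaling and -1.59 with the filter at 10 CPM. That of the HOX cluster was 1.74 with RLE scaling and 1.8 without fetus 1. With RLE scaling the miR-30 median was 1.55 and that of the ruminant families 0.671, and the miR-181 median turned from -0.11 to 0.04. Differences near 0 changed sign; the cause was not tested. With RLE scaling miR-26a was at 0.121, miR-181a 0.108, let-7a-5p 0.0862 and miR-142-5p 0.13. With DESeq2 these were 0.121, 0.108, 0.0862 and 0.129, and without the 3 most abundant 0.095, 0.0826, 0.0606 and 0.105. With no scaling factor miR-26a was at 0.0111 and miR-142-5p at 0.0205. With 1 fetus left out the values were -0.102 to 0.121 for miR-26a, -0.103 to 0.141 for miR-181a, -0.0231 to 0.292 for miR-181c, -0.082 to 0.0736 for miR-142-5p, -0.0283 to 0.16 for miR-379, and -0.0329 to 0.284 for miR-668-3p. The seed families, and their alternatives, were not run. The lowest count of a shared miRNA in a control library was 8.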

Other observations

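Some groups of miRNAs that share a locus were picked after their values were seen, so no test is given for them. The miR-188 to miR-660 cluster, which in human lies in an intron of CLCN5 on the X chromosome, had 11 members in both tables. All 11 were lower in kidney in both LOS and control fetuses and every control kidney lay below every control muscle. The median difference was -1.45, with a range of -1.93 to -0.61, and the cluster took 1.17% to 1.33% of listed reads in kidney and 3.01% to 3.55% in muscle. miR-532 had 1889.8, 1619.6, 1885 and 1889 CPM in kidney, against 4921, 4896, 5292 and 5371 CPM in muscle (-1.49 ± 0.06). miR-660 had 7651, 8149, 9285 and 8487 CPM in kidney and 22612, 21294, 27051 and 21032 CPM in muscle (-1.45 ± 0.07).

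The miR-378 family took 0.149% to 0.17% of listed reads in kidney and 3.35% to 3.93% in muscle, with a median difference of -4.28. miR-103 and miR-107, which lie in introns of the pantothenate kinase genes, were both higher in kidney. miR-103 had 3194, 3233, 3467 and 3518 CPM in kidney and 1323, 1377, 1439.6 and 1132 CPM in muscle (1.35 ± 0.09), with no overlap. miR-107 had 2664, 2650.3, 2926 and 2957 CPM in kidney and 939, 884, 1032 and 729 CPM in muscle (1.65 ± 0.10), likewise with no overlap.

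miR-375, known from pancreatic islets and other endocrine and epithelial cells, had 60.9, 102, 14.9 and 16.2 CPM in kidney and 8.96, 9.44, 7.69 and 20.5 CPM in muscle. Its difference of 1.75 ± 0.64 passed with all fetuses (edgeR adjusted p 0.0436) and not without fetus 1 (0.133), fetus 2 (0.123) or fetus 3 (0.0937). The difference was 1.13 without fetus 2 and 2.48 without fetus 4.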
